A study of Mus musculus with 11 samples.

Results

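A set of 9 genes expressed in mouse T cells was examined probe by probe. Each had a probe that differed between Il23r-/- and WT cells, and in some, such as Ide, other probes of the same gene did not. The 9 genes are Ide, Wdfy1, Cdk5rap1, Znhit6, 1110017D15Rik, Senp5, Rell1, Swt1 and Trmt1l, of 19057 genes that the array names, and they were picked for large differences at single probes in the comparison reported here. All 24 probes annotated to them were followed, of 45281 on the array, and 22 of the 24 were bright enough to be tested. The values of the 9 genes in that comparison are therefore a description, and no p-value is given for them. Where a probe or gene of the set is said to be called, this reports its place in a fit over the whole array and is no support for the difference that chose it. The chosen name, genes with discordant probes, can be checked for 7 of the 9. Rell1 has 1 probe, and 1110017D15Rik has 1 probe above background.

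The cells were CD4 T cells bearing the T cell receptor β chain, sorted out of the colonic lamina propria, a layer of connective tissue that underlies the gut epithelium. There were 5 Il23r-/- samples and 6 WT samples, all of strain C57BL/6 per the labels. Both kinds of cell had been transferred together, as naive CD4 T cells, into Rag1-/- recipients, which lack mature T and B cells of their own, and were separated by congenic markers when clinical signs of colitis had developed. Samples of both genotypes had thus been exposed to the same kind of inflamed recipient, and no sample came from an uninflamed one. Nothing in the labels ties a sample to 1 recipient or another, so the spread that the p-values rest on could be technical.

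Il23r encodes the receptor chain that binds interleukin 23, a cytokine needed to maintain helper T cells of the interleukin 17 lineage. A bead array reads a transcript through short probes, each of which matches a stretch of it, so that several probes of a gene can report on different stretches, different isoforms or a single shared end. Probes of a gene differ in how strongly they bind, so their levels are not compared with each other here. Differences between genotypes are compared.

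Levels are normalized log2 intensities after background correction, and each difference is Il23r-/- minus WT on that scale. Il23r's own probe was not well above background on any array (0 of 5 Il23r-/-, 0 of 6 WT), so it checks no label. Arrays of both genotypes were alike in brightness, with median raw intensities of 117.5 to 176.7 in Il23r-/- and 107.6 to 165.3 in WT samples, and with 17576 to 18159 and 17309 to 18440 probes above background. All 8 T cell markers on the list were detected on every array, and 0 of them passed the genotype test (2 at an unadjusted p under 0.05). Each marker is counted by its most often detected probe. Of the other cell types of the colon, 3 of 8 epithelial markers (Krt8, Cdh1 and Muc2) were detected on all 11 arrays. So were 5 of 10 myeloid markers (Lyz1, Lyz2, S100a8, S100a9 and Cd14) and Pecam1 of endothelium. Krt8, Muc2, Lyz1 and Lyz2 each also had a probe detected on 0 arrays. Epcam, Krt19 and Vil1 of epithelium, Itgam of myeloid cells and 6 of 7 stromal and endothelial markers were detected on 0 arrays. The same held for 3 of 5 B and plasma cell markers, Cd22, Blnk and Jchain. Cd79b of B cells was detected on 4 of 5 Il23r-/- and 3 of 6 WT arrays, and Ms4a1 on 1 Il23r-/- array. Of these other markers, 0 passed the test, and 2 epithelial ones had an unadjusted p under 0.05, Cdh1 at 0.82 ± 0.21 (adjusted p = 0.071) and Krt18 at -0.75 ± 0.24 (adjusted p = 0.133). The summed level of the 8 epithelial markers ran from 717 to 1033 in Il23r-/- and from 601 to 1209 in WT samples, and that of the 10 myeloid markers from 3801 to 5347 in Il23r-/- and from 2370 to 9534 in WT samples, both on the linear scale, and their part in the results was not tested. In such bulk samples, fewer cells of a type and less RNA per cell cannot be told apart.

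**Figure D1:**
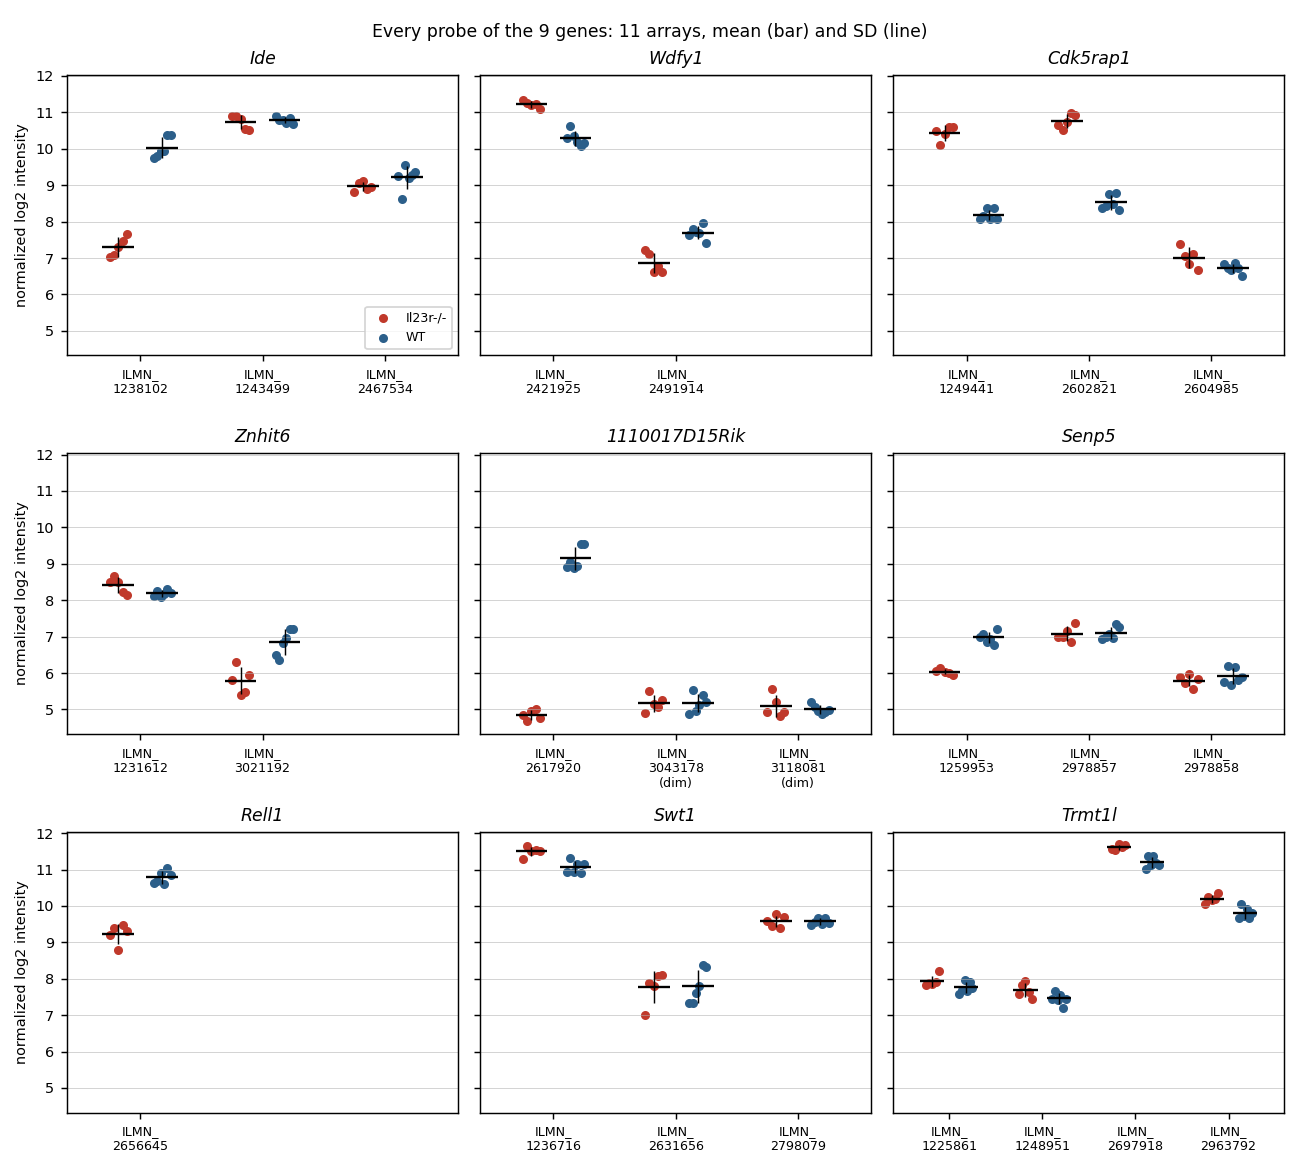
Normalized log2 intensity (y axis) of every probe of the 9 genes, with a point for each array, Il23r-/- in red to the left of WT in blue, a bar at the mean and a line for the SD (n = 5 and n = 6). The groups stand wholly apart at 1 of 3 Ide probes, both Wdfy1 probes, 2 of 3 Cdk5rap1 probes and 1 probe each of 1110017D15Rik, Senp5 and Rell1. They do so only narrowly at 2 of 4 Trmt1l probes and 1 Znhit6 probe. The probes marked as dim were above background on 0 arrays.

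Of the 22 tested probes of these genes, 12 were called by limma (p adjusted by Benjamini-Hochberg over all tested probes, threshold 0.05), 6 of them higher and 6 lower in Il23r-/- cells. Over the whole array 1.78% of 18003 tested probes were called, 1.17% as higher and 0.611% as lower. If only the array medians were made equal, the calls over the array divided into 199 higher and 58 lower, whereas quantile normalization gave 210 and 110. The groups did not overlap at 11 of the 22 probes, as at 3.21% of all tested probes. Since the genes were picked for this comparison, nothing is read from these counts.

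The genes that process RNA come first. Cdk5rap1 encodes an enzyme that modifies mitochondrial transfer RNAs by adding a methylthio group next to the anticodon. It was higher in Il23r-/- cells at 2 of its 3 probes, all of which carry the same RefSeq accession, NM_025876. Probe ILMN_1249441 read 10.49, 10.09, 10.40, 10.60 and 10.60 in the Il23r-/- samples, against a range of 8.06 to 8.38 with a median of 8.12 in WT samples. Every Il23r-/- array stood at least 1.71 above every WT array, and the difference was 2.25 ± 0.11 (SE), a ratio of 4.76.

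The second Cdk5rap1 probe, ILMN_2602821, read 10.65, 10.51, 10.72, 11.00 and 10.92 in Il23r-/- samples, against 8.33 to 8.79 with a median of 8.46 in WT samples. Its difference was 2.23 ± 0.12, close to that of the first probe, and here too the groups were separated by more than their whole spread. The third probe, ILMN_2604985, read 7.39, 7.04, 6.85, 7.12 and 6.66 in Il23r-/- samples and 6.50 to 6.86 with a median of 6.71 in WT samples. At this probe the groups overlapped, with a difference of 0.30 ± 0.12, although it was above background on all 11 arrays. The 3 probes of Cdk5rap1 therefore comprised a pair with a like difference and 1 with a much smaller one.

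Znhit6 encodes a factor that assembles box C/D small nucleolar ribonucleoproteins, which guide methylation of ribosomal RNA. Its probes carry 1 accession and had differences of opposite sign. Probe ILMN_3021192 read 5.81, 6.31, 5.39, 5.48 and 5.95 in Il23r-/- samples, against 6.36 to 7.21 with a median of 6.90 in WT samples. The groups were separated by 0.05, and the difference was -1.06 ± 0.19. It was above background on 3 of 5 Il23r-/- arrays and on 6 of 6 WT arrays, so that the lowest Il23r-/- values lie at the floor of the measurement. On the authors' log2 values, which have no background correction, the difference was -0.50. The other probe, ILMN_1231612, read 8.50, 8.67, 8.50, 8.23 and 8.15 in Il23r-/- samples and 8.10 to 8.31 with a median of 8.18 in WT samples, a difference of 0.22 ± 0.10. Its groups overlapped.

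Swt1 and Trmt1l are neighbours on chromosome 1 with no other gene of the RefSeq table between them. Swt1 is known from yeast as an endoribonuclease of nuclear messenger RNA surveillance, and Trmt1l resembles a transfer RNA methyltransferase. They are transcribed in opposite directions, and their promoter windows overlap by 206 bases. The window of Trmt1l is shown because it holds the start sites of both genes, the 1 place that this pair of genes, both higher at some probes in Il23r-/- cells, shares in the annotation. It is printed from RefSeq on build GRCm38.p6, plus strand, chr1:151428292-151428591, and the capitals mark the 106 bases between the start of Swt1 to the left and that of Trmt1l to the right.
Trmt1l promoter: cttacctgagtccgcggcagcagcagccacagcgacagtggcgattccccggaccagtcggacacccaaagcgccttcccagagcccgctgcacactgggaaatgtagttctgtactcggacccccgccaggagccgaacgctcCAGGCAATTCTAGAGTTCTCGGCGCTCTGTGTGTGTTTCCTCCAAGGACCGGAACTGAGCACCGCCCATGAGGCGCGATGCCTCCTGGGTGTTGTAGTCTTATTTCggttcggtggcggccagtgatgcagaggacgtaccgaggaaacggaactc

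This window holds 24 CG dinucleotides, as many as or more than which are found in 20.0% of the 32851 promoter windows in the table, whose median is 7. Of all promoter windows, 10.8% overlap that of another gene on the other strand. Counted by gene, at least 1 such window is found for 3 of the 8 genes here that have one in the table. These are Swt1 and Trmt1l, which overlap each other, and 1110017D15Rik, which has 2 windows. The share of windows and the count of genes are therefore not comparable.

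Swt1 probe ILMN_1236716 read 11.30, 11.63, 11.51, 11.54 and 11.51 in Il23r-/- samples, against 10.90 to 11.31 with a median of 11.04 in WT samples. Il23r-/- sample 1 fell just within the WT range and the other Il23r-/- samples above it, and the difference was 0.44 ± 0.10. The other Swt1 probes overlapped fully. ILMN_2631656 was at -0.02 ± 0.23 and ranged from 7.00 to 8.09 in Il23r-/- and from 7.32 to 8.37 in WT samples. ILMN_2798079 was at 0.01 ± 0.09 and ranged from 9.40 to 9.77 in Il23r-/- and from 9.47 to 9.68 in WT samples.

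All 4 Trmt1l probes had positive differences. ILMN_2697918 read 11.56, 11.53, 11.69, 11.63 and 11.67 in Il23r-/- samples, against 11.01 to 11.38 with a median of 11.15 in WT samples, a difference of 0.42 ± 0.09. ILMN_2963792 read 10.06, 10.24, 10.17, 10.18 and 10.35 in Il23r-/- samples, against 9.66 to 10.05 with a median of 9.76 in WT samples, a difference of 0.40 ± 0.09. Neither overlapped between genotypes, but the gaps were 0.15 and 0.01. The remaining probes, ILMN_1225861 at 0.17 ± 0.10 and ILMN_1248951 at 0.23 ± 0.11, overlapped. The last of these is annotated to a cDNA clone, AK088077, and the other 3 to NM_026876.

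The calls for this pair of genes were lost in most of the fits that lacked 1 array, although the differences changed little. Leaving out each of the 11 arrays in turn, the Swt1 probe was called only without WT sample 2 or Il23r-/- sample 1, with a difference between 0.40 and 0.49. ILMN_2697918 was no longer called without WT sample 1, 3, 5 or 6 or Il23r-/- sample 3, 4 or 5 (0.38 to 0.46), and ILMN_2963792 in every fit but that without WT sample 2 (0.36 to 0.45). If only the medians were made equal, 0 of these 3 probes were called. Their differences stayed positive in all these fits.

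Ide and Senp5 encode proteases. Ide, the insulin-degrading enzyme, is a zinc metallopeptidase that cleaves insulin and other small peptides. Its probe ILMN_1238102, annotated to the cDNA clone AK029089, read 7.03, 7.08, 7.30, 7.46 and 7.66 in Il23r-/- samples, against 9.76 to 10.39 with a median of 9.94 in WT samples. The lowest WT array stood 2.09 above the highest Il23r-/- array, and the difference was -2.72 ± 0.15, so that the signal was 6.61-fold lower in Il23r-/- cells. Raw intensities, before any correction, were 234.8 to 305.8 in Il23r-/- and 966.6 to 1231.2 in WT samples.

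The other Ide probes are annotated to the RefSeq transcript NM_031156, and their groups overlapped. ILMN_1243499 read 10.90, 10.89, 10.82, 10.55 and 10.51 in Il23r-/- samples and 10.69 to 10.91 with a median of 10.79 in WT samples, a difference of -0.06 ± 0.09. ILMN_2467534 read 8.82, 9.06, 9.11, 8.91 and 8.96 in Il23r-/- samples and 8.62 to 9.57 with a median of 9.28 in WT samples, a difference of -0.24 ± 0.14. At both RefSeq probes the genotypes thus differed by less than the spread of the samples, and at the clone probe by far more. The RefSeq table lists 1 transcript for Ide. Of the 24 probes here 2 are annotated to clones outside RefSeq, that of Ide and that of Trmt1l, against 10.3% of all named probes.

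Senp5 encodes a protease that matures the small modifier SUMO and removes it from proteins. Probe ILMN_1259953 read 6.05, 6.14, 6.02, 5.99 and 5.95 in Il23r-/- samples, against 6.78 to 7.21 with a median of 6.97 in WT samples, a difference of -0.95 ± 0.09. The groups were 0.63 apart. The probe is dim, with raw intensities of 148.1 to 218.4 in Il23r-/- and 166.6 to 272.8 in WT samples, and on the authors' values the difference was -0.46. The other Senp5 probes had differences of -0.02 ± 0.11 and -0.12 ± 0.12, and their groups overlapped. ILMN_2978857 ranged from 6.86 to 7.38 in Il23r-/- and from 6.94 to 7.36 in WT samples, while ILMN_2978858 was above background on only 4 arrays of each genotype. All 3 probes carry NM_177103.

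Wdfy1 and Rell1 are linked to immune signalling. Wdfy1 encodes an endosomal protein with a lipid-binding FYVE domain that has been described as an adaptor for Toll-like receptor 3 and 4. Its probes went in opposite directions, and both separated the genotypes. ILMN_2421925 read 11.35, 11.25, 11.19, 11.22 and 11.08 in Il23r-/- samples, against 10.07 to 10.64 with a median of 10.24 in WT samples, a difference of 0.94 ± 0.10. ILMN_2491914 read 7.21, 7.11, 6.61, 6.77 and 6.61 in Il23r-/- samples, against 7.43 to 7.95 with a median of 7.70 in WT samples, a difference of -0.84 ± 0.13. On the authors' values these were 0.87 and -0.50.

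Both Wdfy1 probes are annotated to NM_027057, and the RefSeq table lists 9 transcripts of the gene, 2 of them curated. Wdfy1 was the 1 gene of 3753 with at least 2 tested probes that had a probe called higher and another called lower (0.0266%). At least 1 called probe was found in 3.12% of these genes, and at least 1 called beside at least 1 not called in 2.58%. All 7 of the genes described here with several tested probes had a called probe, and 6 of the 7 had both, which their choice fixed.

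Rell1 encodes a membrane protein of the RELT branch of the tumor necrosis factor receptor family. Its single probe, ILMN_2656645, read 9.20, 9.39, 8.79, 9.47 and 9.32 in Il23r-/- samples, against 10.61 to 11.04 with a median of 10.76 in WT samples. The difference was -1.55 ± 0.13, a 2.93-fold lower signal in Il23r-/- cells, and the groups were 1.15 apart. With 1 probe, nothing can be said on agreement between probes.

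The transcript 1110017D15Rik is also listed as Smrp1 and is known from spermatids. Its probe ILMN_2617920 read 4.86, 4.68, 4.95, 5.01 and 4.76 in Il23r-/- samples, against 8.88 to 9.55 with a median of 8.99 in WT samples. It was above background on 0 of 5 Il23r-/- arrays and 6 of 6 WT arrays. On the background-corrected scale the signal was thus at least 10.5-fold lower in Il23r-/- cells. This bound sets the WT mean of 9.15 against the lowest level that counted as detected on each Il23r-/- array (mean 5.75). Raw intensities were 87.9 to 150.3 in Il23r-/- and 582.6 to 720.6 in WT samples. On the authors' log2 values, which have no background correction, the difference was smaller, at -2.60, so the bound does not hold on that scale. The other probes, ILMN_3043178 and ILMN_3118081, were above background on 0 arrays, with levels of 4.89 to 5.51 and 4.83 to 5.57 in Il23r-/- samples and of 4.86 to 5.54 and 4.87 to 5.20 in WT samples. All 3 probes carry NM_028624, while the RefSeq table lists 13 transcripts of this gene, the most of the 9 genes. The WT cells thus gave signal at 1 of 3 probes that share an accession.

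**Figure D2:**
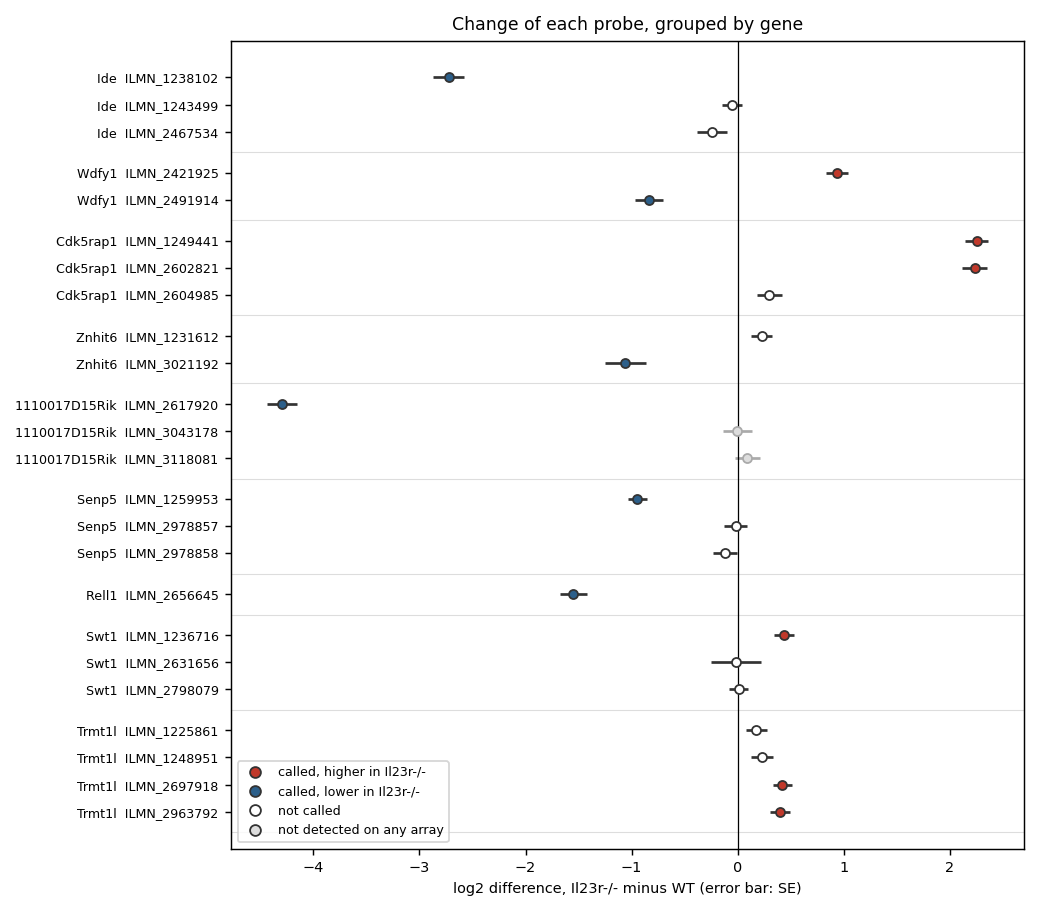
Difference between genotypes, Il23r-/- minus WT, in log2 units (x axis) for each of the 24 probes, grouped by gene, with the SE as error bar and the colour giving the call. Wdfy1 has a probe on either side of 0, Cdk5rap1 has 2 probes near 2.2 and 1 at 0.30, and Ide has 1 probe at -2.72 beside 2 near 0.

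How far probes of a gene departed from each other was set against the rest of the array. For each of 3753 genes with at least 2 tested probes, the gap between the highest and the lowest difference of its probes was taken. The median gap was 0.17, and 5% of genes had a gap over 0.49. Ide had a gap of 2.67, Cdk5rap1 of 1.95, Wdfy1 of 1.77, Znhit6 of 1.28 and Senp5 of 0.93, which placed them at ranks 1, 3, 4, 7 and 13. Without background correction the gap of Znhit6 was 0.65 (rank 15) and that of Senp5 0.43 (rank 84), about that of Swt1 (0.43, rank 83), and on the authors' values these were 0.67 (rank 15), 0.44 (rank 81) and 0.43 (rank 96). In the main fit, Swt1 (0.45, rank 263) and Trmt1l (0.25, rank 1147) lay below the 0.49 that 5% of genes exceeded. The name discordant is not borne out for them there. For Swt1 and Senp5 the rank depended on the background correction. Where on the transcript each probe lies was not analysed here.

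A gap of at least 1 was found in 9 genes (0.240%), 4 of them from the set described here. The within-gene test of limma, which sets each probe's difference against the mean of the gene's other probes, called 14 genes at an adjusted p under 0.05 (0.373%), and Ide, Cdk5rap1, Wdfy1, Senp5 and Znhit6 were among them, 5 of the 7 genes of the set with several tested probes. Large differences at single probes had chosen these genes, so nothing is read from this count. The total was sensitive to single arrays, with 48 genes without WT sample 2 and 9 without Il23r-/- sample 3.

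Of the 9 other genes called, the 5 with the smallest p give the scale. Igf2bp3, an RNA-binding protein gene, had 1 of 5 probes at 0.13 and the others between -1.83 and -0.60, a gap of 1.96 (adjusted p = 8.06e-06). Its probe at 0.13 was dim, with means of 5.88 in Il23r-/- and 5.74 in WT samples. The lowest detected level of the arrays ran from 5.66 to 5.83. Naa25, a subunit of an N-terminal acetyltransferase, had 1 of 6 probes at -0.57 and the others between 0.05 and 0.16 (adjusted p = 0.000876). Tnfrsf10b, a death receptor gene, had probes at 0.55, 0.57 and -0.43 (adjusted p = 0.00379). Gprasp1, a receptor sorting gene, had probes at 1.31, 1.10 and 0.17 (adjusted p = 0.0084). Prkch, a protein kinase C gene, had probes at 0.67 and -0.29 (adjusted p = 0.0104). The largest gap outside the 9 genes, that of Igf2bp3, was therefore as wide as that of Cdk5rap1 and smaller than that of Ide.

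**Figure D3:**
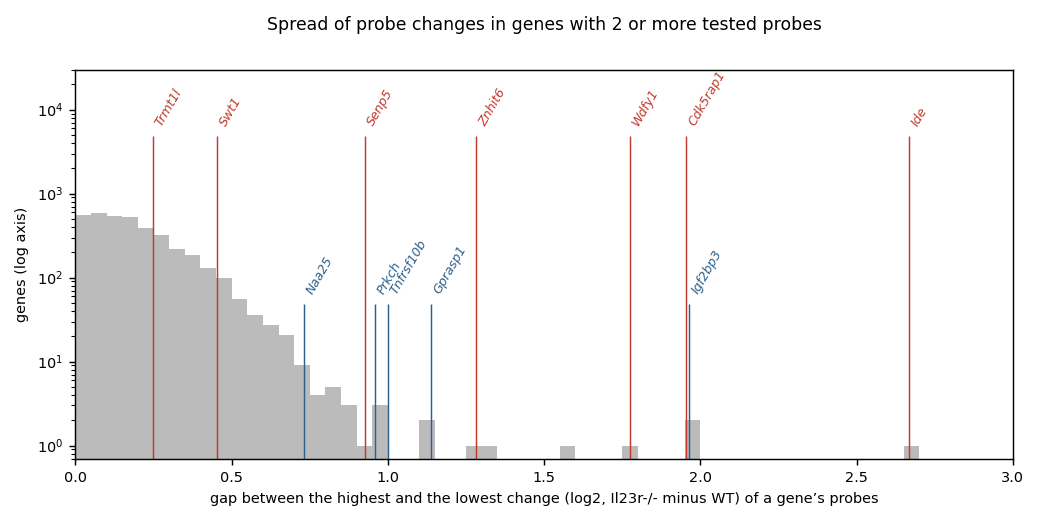
Number of genes (log axis) by the gap between the highest and the lowest probe difference, in log2 units, over 3753 genes with at least 2 tested probes. Red lines mark 7 of the 9 genes and blue lines the 5 other genes with the smallest within-gene p: Ide, Cdk5rap1 and Wdfy1 lie far beyond the bulk, while Swt1 and Trmt1l lie in it.

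Whether probes of a gene varied together within a genotype is a question apart from the difference between genotypes that chose the genes. Such correlations were not computed for genes outside the set, so no share over the array stands beside them. Deviations of the 11 arrays from their genotype means were correlated for all 20 pairs of tested probes in the 7 genes, with an exact permutation test, two-sided, that re-pairs arrays within each genotype. The 2 Cdk5rap1 probes with a like difference varied together, with a Pearson r of 0.892 (p = 0.00154, adjusted p = 0.0308 over the 20 pairs) and a Spearman rho of 0.827 (p = 0.00628, adjusted p = 0.126). Without the 2 arrays whose deviations at the first probe of the pair lay farthest from the median, r was 0.874. With the remaining Cdk5rap1 probe they had an r of -0.109 and -0.175 (permutation p = 0.803 and 0.642).

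No other pair passed after adjustment (1 of 20 in all by Pearson, 0 by both measures). The 2 Trmt1l probes that did not overlap had an r of 0.772 (permutation p = 0.0185, adjusted p = 0.185), a rho of 0.6 (p = 0.0901, adjusted p = 0.601) and an r of 0.513 without 2 arrays. The low Ide probe and ILMN_1243499 had an r of -0.648 (permutation p = 0.0391, adjusted p = 0.261), a rho of -0.691 (p = 0.0353, adjusted p = 0.353) and an r of -0.737 without 2 arrays. The pair of Wdfy1 probes with opposite differences had an r of 0.32 (permutation p = 0.28, adjusted p = 0.842) and a rho of 0.445 (p = 0.186, adjusted p = 0.686). Without 2 arrays its r was 0.763, so this value depended on which arrays were included. All arrays of a pair share their background correction and normalization.

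The nearest tested genes on either side of the 9 on their chromosomes were measured on the same arrays. They were taken from the RefSeq gene order, with 0 to 17 other genes in between, which gave 16 genes outside the set. Of these, 0 passed the genotype test (limma adjusted p under 0.05), and 3 had an unadjusted p under 0.05. Their median was -0.04, beside -0.01 over all tested probes, and they ranged from -0.47 to 0.35. The lowest was Kif11, a mitotic kinesin with 1 gene between it and Ide, at -0.47 ± 0.16 (adjusted p = 0.146). The highest was Cbfa2t2, a transcriptional corepressor with 6 genes between it and Cdk5rap1, at 0.35 ± 0.12 (adjusted p = 0.174). Tbc1d1 near Rell1 was at -0.26 ± 0.12 (adjusted p = 0.262).

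The genes that adjoin Wdfy1 directly, Ap1s3 and Mrpl44, were at -0.06 ± 0.16 and -0.02 ± 0.09. Ncbp2, directly before Senp5, was at -0.10 ± 0.10. Ivns1abp, directly before Swt1, was at 0.06 ± 0.09, and Rnf2, after Trmt1l, at -0.01 ± 0.10.

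**Figure D4:**
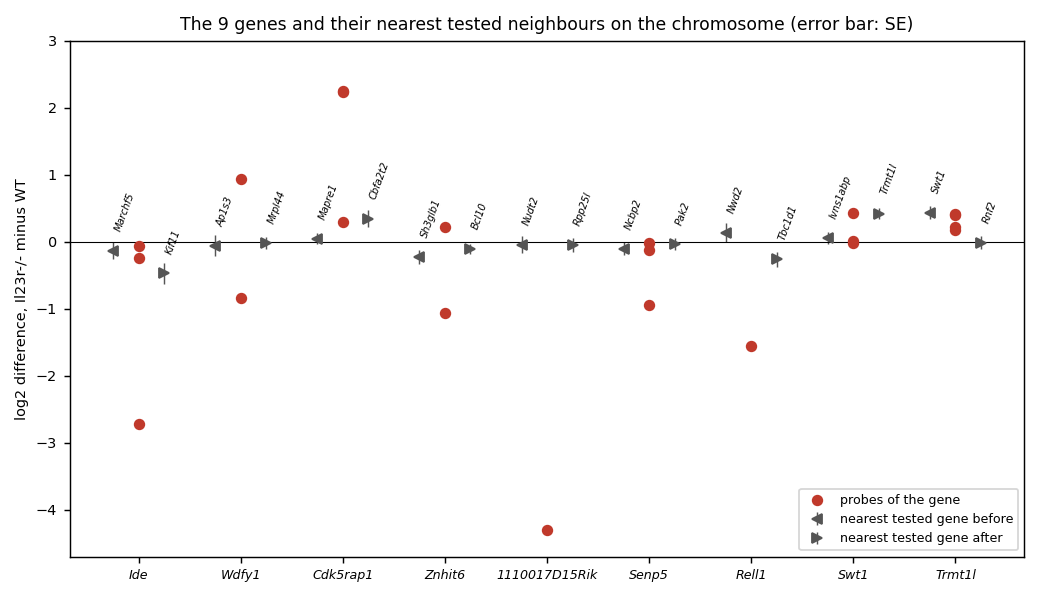
Log2 difference, Il23r-/- minus WT (y axis), of the tested probes of each of the 9 genes (red) and of the nearest tested gene before and after it on the chromosome (triangles, with SE). Neighbours from outside the set lie between -0.47 and 0.35, while probes of the set run from -4.29, the fitted value of 1110017D15Rik, to 2.25.

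Genes with related functions were measured through lists of partners. Over 7 lists, 83 genes outside the set were tested by their brightest probe, 0 passed, and 7 had an unadjusted p under 0.05, of which 5 were higher. Their median was 0.02, beside -0.01 over all tested probes, and 45 had positive values. With array weights, with a trended and robust variance or without background correction, 2 of them were called, Stk39 and Irf3. Irf3 was called without WT sample 2 (adjusted p = 0.028), and Stk39 without Il23r-/- sample 1 (adjusted p = 0.0446). As with the neighbours, differences of 0.5 log2 or less can be missed by the genotype test.

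Of 29 transfer RNA modification enzymes besides Cdk5rap1 and Trmt1l, 0 passed (median 0.09). The methyltransferase subunit gene Trmt61a was at 0.38 ± 0.11 (adjusted p = 0.0902), the dihydrouridine synthase gene Dus4l at 0.43 ± 0.14 (adjusted p = 0.146) and the methyltransferase gene Trmt2a at 0.20 ± 0.07 (adjusted p = 0.172). Of 13 factors of box C/D and related snoRNP assembly besides Znhit6, 0 passed (median 0.02), with the chaperone adaptor gene Rpap3 at 0.38 ± 0.11 (adjusted p = 0.111), Nop56 at -0.17 and Ruvbl1 at -0.26. Of 10 genes of messenger RNA export and nuclear surveillance besides Swt1, 0 passed (median -0.09), with Alyref at -0.16, Dis3 at -0.25 and Ddx39b at 0.12.

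Of 16 genes of SUMO conjugation and its proteases besides Senp5, 0 passed (median -0.02), with the proteases Uspl1 at 0.15 and Senp2 at 0.13 and the ligase Pias3 at -0.20. Of 6 metallopeptidases and relatives of the family of Ide, 0 passed (median -0.12), with Uqcrc1 at -0.13, Pitrm1 at -0.14 and Pmpcb at -0.17. Of 5 genes of the RELT family and its partner kinases, 0 passed (median 0.05), with the kinase gene Stk39 at -0.34 ± 0.08 (adjusted p = 0.0624), Fam83g at -0.20 and Oxsr1 at 0.09. Of 4 tested genes linked to Wdfy1, 0 passed (median -0.03), with the transcription factor gene Irf3 at 0.33 ± 0.09 (adjusted p = 0.09), the adaptor gene Ticam1 at -0.35 ± 0.14 (adjusted p = 0.221) and the kinase gene Tbk1 at 0.10.

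For the probe with the widest difference in each gene, the probe of another gene with the most similar values over the 11 arrays was found. Likeness is Pearson's r, which here mainly reflects that both probes split the arrays by genotype. The low Ide probe was most like the probe of 1110017D15Rik (0.992). Those of 1110017D15Rik, Senp5 and Rell1 were most like a probe of Erdr1 (0.995, 0.975 and 0.971), which was at 6.83 in Il23r-/- and 12.81 in WT cells on average. Wdfy1 was most like Adamtsl4 (0.979), Cdk5rap1 like Tmem181a (0.977), Znhit6 like Tnfrsf1a (0.945), Swt1 like Ndufaf4 (0.973) and Trmt1l like 6030458C11Rik (0.975).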

How the data were processed

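Biotin-labelled amplified RNA of each sample was read on a 1-colour mouse Illumina bead array, per the labels' protocols. The authors deposited a linear intensity for each probe, with no normalization visible. Their tool was GenomeStudio 1.6.0 (from the submitters' processing notes). Beside it they deposited a detection score, a fraction from 0 to 1 that rises with intensity (Spearman correlation at least 0.984 on each array), used as 1 minus the detection p. The deposited series table holds log2 values, found to be log2 intensity minus each array's 75th percentile. Bead numbers were joined to probe names by matching all 11 values (largest difference 0.000339 log2). Names came from the platform annotation. Probe sequences were not used here.

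Background correction and quantile normalization of the intensities used neqc (offset 16; R 4.3.3, limma 3.58.1). The offset shrinks differences of dim probes. Tested probes had a detection p under 0.05 on 5 or more of the 11 arrays. Genotypes were compared with lmFit and eBayes, genotype the single term, two-sided, adjusted over 18003 probes, and departures within a gene with diffSplice (Simes p, adjusted over 3753 genes). Precision is limited by the number of arrays. The genes and lists were chosen with earlier results of these data known. The listed yeast name Mlp1, in mouse a synonym of Smad1, was left unmatched. Named genes are the 9 with every probe, in each list the 3 others with the smallest p, the nearest tested neighbours, the 5 other genes with the smallest within-gene p and the most similar probe. Both tests were first tested on simulated data. Alternatives were other normalizations, filters, variance models, array weights, the replicate number as a block and leaving out each array.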

Additional observations from a re-analysis of the deposited data

Results flagged for a closer look

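Among the 48 groups formed by the 24 probes and the pair of genotypes, 2 held an array that stood far from the others, and chance alone flags about 1 in 20 such groups. At Swt1 probe ILMN_2631656, Il23r-/- sample 1 read 7.00, while the other Il23r-/- samples read 7.81 to 8.09. At Trmt1l probe ILMN_1225861, Il23r-/- sample 5 read 8.21, while the others read 7.83 to 7.90. Neither probe was called in any of the 20 alternative fits.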

How the results depend on the processing

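The count of 320 called probes over the array was 210 without a detection filter and 159 to 513 in the fits that each lacked 1 array. The 14 genes with a departing probe became 26 without background correction, 23 on the authors' values, 23 with array weights, 77 without a detection filter and 9 by a gap of at least 1. Without 1 array they numbered 9 to 48. Of the listed partner and neighbour genes 2 were called, against 0, without background correction, with a trended and robust variance and with array weights, and 0 to 1 without 1 array. The causes were not tested. Called probes of the 9 genes numbered 9 to 12 over these fits.

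With the replicate number as a block, 264 probes and 36 genes were called, and Znhit6 probe ILMN_3021192 and both called Trmt1l probes were not. The labels do not say what the number marks, WT sample 6 has no partner, and deviations of same-numbered samples correlated at -0.01 to 0.26 over 5 pairs, so the samples were not treated as paired. In the setting that asked for detection on all 11 arrays, 3 probes had no value: ILMN_3021192, ILMN_2617920 and ILMN_2978858. Signal over background limits the dim probes. Without background correction the lower probes of Senp5, Znhit6, Wdfy1 and 1110017D15Rik were at -0.44, -0.48, -0.49 and -2.57, each over 1.5 times smaller, and that of Ide at -2.12.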
